A study of Homo sapiens with 24 samples.

Results

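The TSC22 domain family comprises TSC22D1, TSC22D2, TSC22D3 and TSC22D4, and its members were taken as every probe that the array's platform annotation gives one of these 4 gene symbols. The 4 genes, of 20046 with a probe of their own symbol, had 12 of the 47323 probes on the array: 4 for TSC22D1, 2 for TSC22D2, 5 for TSC22D3 and 1 for TSC22D4. Each probe was followed on its own. Gene expression was measured on Illumina beadchips, 24 arrays in 8 groups of 3, in LREX' cells, a human prostate cancer cell line derived from a xenograft tumor that had become resistant to enzalutamide and known for high glucocorticoid receptor levels. All cells were kept in steroid-depleted (charcoal-stripped) medium and exposed for 8 h to their agents. The vehicle group received DMSO. A DHT group received 1 nM dihydrotestosterone, a potent androgen, and 2 further groups received the synthetic glucocorticoid dexamethasone (Dex) at 10 or 100 nM. Enzalutamide, an antiandrogen drug, was given alone at 10 µM, and in 3 groups together with DHT 1 nM, Dex 10 nM or Dex 100 nM. For these combinations the labels state no enzalutamide dose. All groups come from a single line, and the 3 arrays of a group are described as biological triplicates, so p-values speak to the spread between cultures of that line.

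TSC22 family proteins share a short domain, the TSC box, followed by a leucine zipper through which they form homodimers and heterodimers, and they lack a classic DNA-binding domain. The genes produce long and short forms. The short form of TSC22D3 is GILZ, the glucocorticoid-induced leucine zipper, a textbook target of the glucocorticoid receptor that binds NF-kappaB and AP-1 proteins and restrains their activity. TSC22D1 was first described as a gene induced by transforming growth factor beta. Long TSC22D1, TSC22D2 and TSC22D4 proteins associate with the pseudokinase NRBP1 and with WNK kinases, which control cell volume.

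Glucocorticoid and androgen receptors bind the same kind of palindromic DNA element, so the stretches upstream of the annotated starts of the family were searched for it. RefSeq promoter windows (GRCh38.p14) were at hand for 5 starts of TSC22D1, 4 of TSC22D3 and 1 of TSC22D4, and the 250 bases before each start were scanned on both strands. The full palindrome, AGAACA and TGTTCT with any 3 bases between them, was present in 1 of 35116 windows of all genes (0.00285%) and in none of the 10 family windows. At so low a share, its absence from 10 windows carries no information about the family. A single arm of it, TGTTCT, was present in 4350 windows (12.4%) and in 1 family window, 94 bases before a start of TSC22D1. The forkhead motif TGTTTAC, searched because forkhead factors of the FOXO group act on the TSC22D3 gene, was present in 1046 windows (2.98%) and in 1 family window, 147 bases before a start of TSC22D3. TGTTCT and TGTTTAC overlap in their first 4 letters but were found in different genes. The 2 windows are shown because they were the only family windows with a match, and the other windows of TSC22D1 and TSC22D3 held none. Whether either match has a part in the responses described below was not tested. Both are read 5′ to 3′ on the minus strand, with the matched motif in capitals. They lie at chr13:44474342-44474591 (TSC22D1) and chrX:107717063-107717312 (TSC22D3).
TSC22D1: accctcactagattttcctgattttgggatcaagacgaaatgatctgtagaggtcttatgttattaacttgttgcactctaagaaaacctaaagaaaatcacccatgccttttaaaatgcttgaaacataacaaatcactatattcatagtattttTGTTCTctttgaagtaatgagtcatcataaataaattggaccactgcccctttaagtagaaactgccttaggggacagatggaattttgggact
TSC22D3: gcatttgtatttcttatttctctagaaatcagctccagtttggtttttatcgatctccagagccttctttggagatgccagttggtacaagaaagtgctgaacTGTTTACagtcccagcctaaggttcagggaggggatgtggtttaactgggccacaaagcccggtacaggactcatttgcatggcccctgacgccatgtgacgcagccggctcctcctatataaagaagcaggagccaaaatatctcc
A match is only a description of these letters, and longer distances from the starts were not searched.

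Array signals were background-corrected, quantile-normalized and put on a log2 scale, and a probe was tested if its detection p-value was below 0.05 on at least 3 arrays, which 24607 probes met. Among them were 9 family probes: all 4 of TSC22D1, both of TSC22D2, 2 of 5 for TSC22D3 and the single TSC22D4 probe. The 3 remaining TSC22D3 probes were near background. ILMN_1781356 was detected on 1 of 24 arrays with raw signals of 46.3 to 76.4. ILMN_2276952 (39.6 to 60.4) and ILMN_1695382 (at most 57.0) were detected on 0 arrays. They are not part of any comparison. By their annotated transcripts, TSC22D3 ILMN_1748124 is assigned to the long form and ILMN_2376403 to the short form that encodes GILZ. Each of these transcripts has another annotated probe that was not tested. ILMN_1781356, detected on 1 array, shares the transcript of ILMN_1748124. ILMN_2276952, detected on 0 arrays, shares that of ILMN_2376403. For TSC22D1, ILMN_1787567 and ILMN_1692177 are assigned to the short form, and ILMN_2412380 and ILMN_1711091 to the long form. The annotation does not say which other transcripts a probe may bind, so the forms are labels here and not separate measurements. TSC22D1 ILMN_1711091 was detected on 17 of 24 arrays, with raw signals of only 62.0 to 91.3.

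Across the arrays, median raw signals ran from 59.4 to 69.5, between 19463 and 21017 probes were detected, and a probe's signal rested on a median of 18 to 21 beads. Arrays of a group correlated at 0.990 to 0.994. Relative array weights estimated with limma ran from 0.69 (Dex 100 nM replicate 2) to 1.44 (vehicle replicate 1). Of 11 luminal prostate markers measured, 8 were detected on all 24 arrays, while the basal keratins KRT5, KRT14 and KRT15 were detected on 0 arrays. The luminal markers KRT19, KLK3 and KLK2 were detected on 1, 9 and 15 arrays. Of 7 stromal and endothelial markers, 2 (COL1A1 and VWF) were detected on all 24 arrays and 2 on 0. Among 4 immune markers measured, CD68 was detected on all 24 arrays and 1 on 0. Of 4 neuroendocrine markers, INSM1 was detected on 16 arrays and 1 on 0. Of 5 stromal and endothelial probes tested, VWF was lower with Dex 100 nM than with vehicle (log2 difference -0.46, limma adjusted p = 0.00938) and lower with Dex 100 nM than without it under enzalutamide (-0.59, limma adjusted p = 0.00121). None of 3 immune probes or of 1 neuroendocrine probe changed with DHT or Dex 100 nM (limma, adjusted p under 0.05). Whether the VWF signal has a part in the family's changes was not tested. In bulk RNA such as this, fewer cells expressing a gene and less RNA per cell cannot be told apart.

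The probes of the 4 genes can be described by how far apart their group means lay. The range of the 8 group means, on the log2 scale, was 1.06 and 1.12 for the tested TSC22D3 probes and 0.67 to 0.90 for the TSC22D1 probes. It was 0.29 and 0.49 for TSC22D2 and 0.46 for TSC22D4, beside a median of 0.32 over all tested probes. A range at least as large as that of TSC22D3 was found for 0.845% (ILMN_1748124) and 0.736% (ILMN_2376403) of tested probes. For TSC22D1 that share lay between 1.39% and 5.40%, and for TSC22D2 and TSC22D4 between 18.7% and 58.8%. These shares include the treatment effects tested below and are given as a description. The spread between arrays of a group was 0.09 and 0.11 (pooled SD, log2) for TSC22D3. It was 0.10 and 0.08 for the short-form TSC22D1 probes and 0.23 and 0.24 for the long-form ones, so that smaller differences could be resolved for the former.

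TSC22D1 and TSC22D3 accounted for every call in the family, and TSC22D2 and TSC22D4 for none, in tests with limma at a Benjamini-Hochberg adjusted p below 0.05 over all tested probes. Over the 9 tested family probes, DHT against vehicle called 4 (3 higher, 1 lower), beside 2.52% of all tested probes. Dex 10 nM called 2, both higher (1.14% of all probes), and Dex 100 nM called 4, all higher (2.91%). Dex 100 nM against 10 nM called 1 (0.386%), and Dex 100 nM against DHT called 3, of which 2 were higher (1.44%). Enzalutamide plus DHT against DHT called 4, 2 in each direction (2.3%). Relative to enzalutamide alone, Dex 10 nM called 2 (0.683%) and Dex 100 nM 4 (1.97%), all higher. Enzalutamide plus Dex 100 nM against enzalutamide plus DHT called 4, all higher (1.85%). Against enzalutamide plus Dex 10 nM it called 0 (0.248%), with 5 family probes and 1380 of all at an unadjusted p below 0.05. Enzalutamide added to Dex 10 nM called 0 family probes and 0% of all probes (0 and 1513 at an unadjusted p below 0.05), as did enzalutamide added to Dex 100 nM (2 and 1865). Probes of a gene are not independent measurements. The median log2 difference over the 9 probes was 0.07 with DHT and 0.47 with Dex 100 nM, beside -0.01 over all tested probes in both.

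Separation of the 3 arrays of a group from the 3 of another is a looser measure, and many probes of the array showed it. Of the 9 family probes, 5 had no overlap between DHT and vehicle (16% of all tested probes), 2 between Dex 10 nM and vehicle (17.4%) and 6 between Dex 100 nM and vehicle (18.3%). There were 5 between the doses (11.9%), 4 between Dex 100 nM and DHT (14%) and 1 between enzalutamide and vehicle (12.8%). Adding enzalutamide separated 6 from DHT alone (16%), 0 from Dex 10 nM alone (11.7%) and 1 from Dex 100 nM alone (11.2%). Under enzalutamide, 1 was separated by DHT (7.96%), 3 by Dex 10 nM (12.9%) and 4 by Dex 100 nM (14.9%). Also under enzalutamide, Dex 100 nM was separated from Dex 10 nM on 4 (9.95%) and from DHT on 5 (15%).

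**Figure D1:**
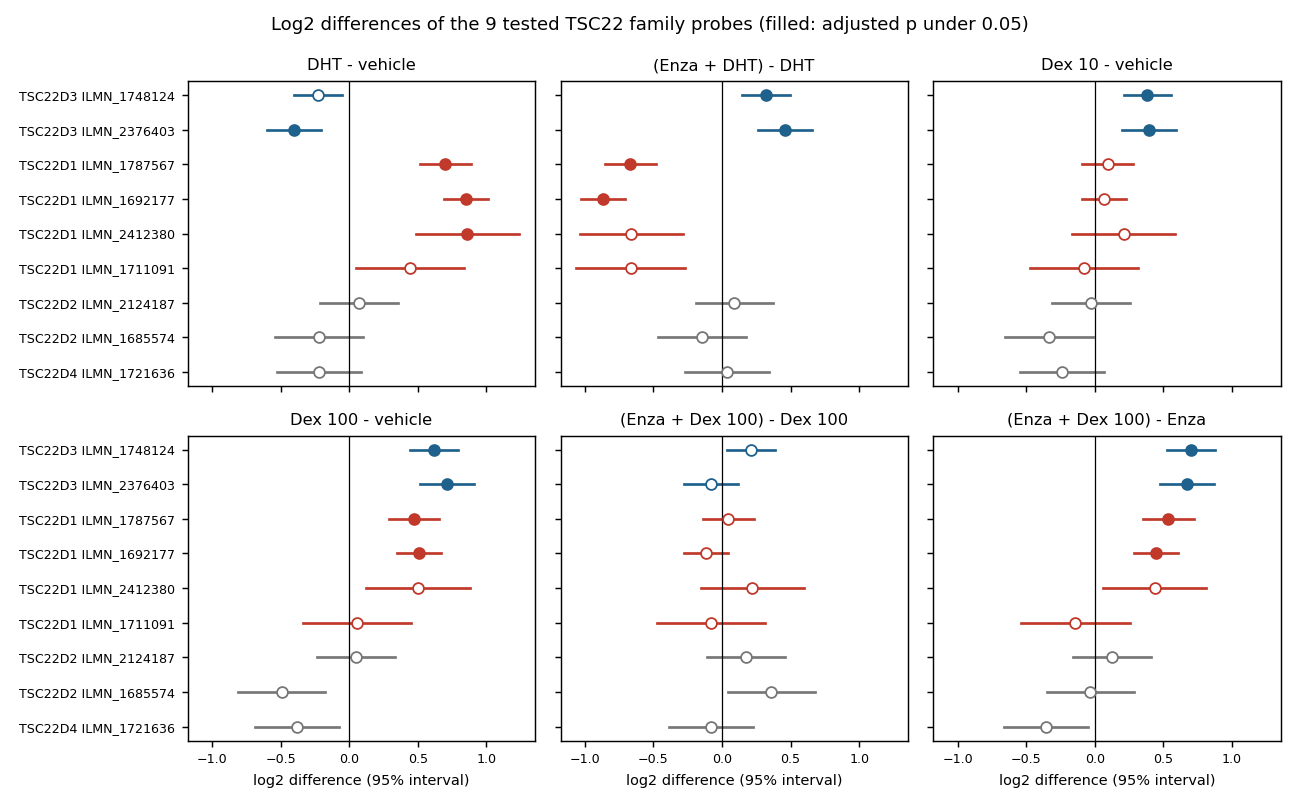
Log2 differences with 95% intervals (horizontal axis) of the 9 tested family probes (vertical axis) in 6 comparisons, 1 panel each, with filled points for an adjusted p under 0.05. TSC22D3 (blue) is to the right of 0 where Dex was set against vehicle or enzalutamide and to the left with DHT, TSC22D1 (red) is to the right with DHT and to the left when enzalutamide was added to DHT, and no point is filled when enzalutamide was added to Dex 100 nM.

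TSC22D3 (GILZ) rose with dexamethasone at both doses, on both tested probes. On ILMN_1748124, normalized log2 levels with vehicle were 8.54, 8.45 and 8.54. They were 8.90, 8.87 and 8.91 with Dex 10 nM and 9.16, 9.22 and 9.01 with Dex 100 nM. Every array of either dexamethasone group lay above every vehicle array, and the 2 dose groups did not overlap with each other. With Dex 100 nM the level rose by 0.62 ± 0.08 on the log2 scale (± is the SE of the difference throughout, n = 3 per group), 1.54-fold, limma adjusted p = 6.97e-05. ILMN_2376403 is the tested probe of those annotated to the GILZ transcript. Its levels were 6.34, 6.58 and 6.36 with vehicle, 6.77, 6.78 and 6.91 with Dex 10 nM, and 7.15, 7.10 and 7.17 with Dex 100 nM. Here too the 3 groups were separate from each other. The Dex 100 nM difference was 0.71 ± 0.09, 1.64-fold (limma adjusted p = 5.78e-05).

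At Dex 10 nM TSC22D3 rose by 0.38 ± 0.08 on ILMN_1748124 (1.31-fold, limma adjusted p = 0.0232) and 0.39 ± 0.09 on ILMN_2376403 (1.31-fold, limma adjusted p = 0.0454). Both calls sat close to the threshold. Omitting any single vehicle or Dex 10 nM array ended the call on ILMN_1748124, with adjusted p of 0.0629 to 0.105 and log2 changes of 0.35 to 0.40. On ILMN_2376403 it was lost without any 1 of vehicle replicates 1 and 3 and the 3 Dex 10 nM arrays (adjusted p 0.0888 to 0.205), without background correction (0.069) and with no filter (0.0678). In fits of the 6 compared arrays alone neither was called (0.161 and 0.273). With arrays scaled on the median of all probes instead of by quantiles, the 2 differences were 0.22 and 0.27 and neither was called (adjusted p = 0.217 and 0.193), while the median over all tested probes moved by -0.10. Direct tests of Dex 100 nM against 10 nM did not reach the threshold for TSC22D3: the differences were 0.24 (95% interval 0.06 to 0.41, limma adjusted p = 0.468) and 0.32 (0.12 to 0.51, limma adjusted p = 0.294).

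DHT lowered TSC22D3 on 1 of its 2 tested probes. Levels with DHT were 8.37, 8.24 and 8.23 on ILMN_1748124 and 6.04, 5.96 and 6.07 on ILMN_2376403. On both probes all 3 DHT arrays lay below all 3 vehicle arrays. The difference on ILMN_2376403 was -0.40 ± 0.09, 1.32-fold lower (limma adjusted p = 0.0194). That on ILMN_1748124 was -0.23 ± 0.08 (95% interval -0.40 to -0.06) and was not called (limma adjusted p = 0.237). The call on ILMN_2376403 was lost without vehicle replicate 2 or without DHT replicates 1 or 2, with adjusted p between 0.0559 and 0.139. It was also lost in a fit of the 6 compared arrays alone (0.157) and without background correction (0.0565, log2 change -0.27). Between the 2 hormones, TSC22D3 was higher with Dex 100 nM than with DHT by 0.85 ± 0.08 (1.80-fold, limma adjusted p = 2.13e-06) and 1.12 ± 0.09 (2.17-fold, limma adjusted p = 2.8e-07).

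**Figure D2:**
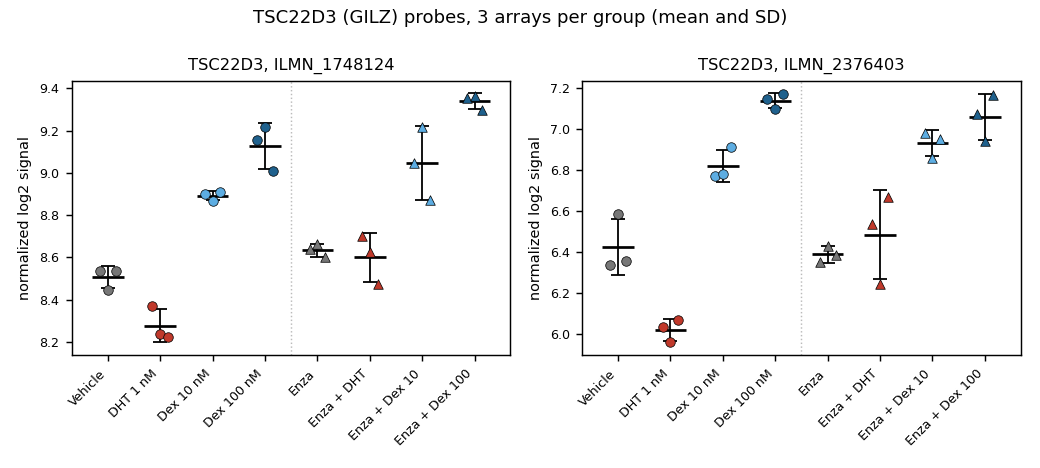
Normalized log2 signal (vertical axis) of the 2 tested TSC22D3 probes in each of the 8 treatment groups (horizontal axis), with 1 point per array, the group mean as a line and the SD of 3 arrays as a bar, circles without and triangles with enzalutamide. On both probes the 3 DHT arrays are below the 3 vehicle arrays, and the 4 groups with Dex are the 4 highest.

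TSC22D3 also rose with dexamethasone in cells given enzalutamide. On ILMN_1748124, levels were 8.64, 8.66 and 8.60 with enzalutamide alone, 9.05, 9.22 and 8.87 with Dex 10 nM added, and 9.36, 9.36 and 9.30 with Dex 100 nM added. Both combination groups lay above enzalutamide alone, and the Dex 100 nM combination above all other arrays of the series on this probe. Against enzalutamide alone, Dex 100 nM raised ILMN_1748124 by 0.70 ± 0.08 (1.63-fold, limma adjusted p = 1.65e-05). On ILMN_2376403, levels were 6.35, 6.43 and 6.39 with enzalutamide, 6.98, 6.86 and 6.95 with Dex 10 nM added, and 7.07, 6.94 and 7.16 with Dex 100 nM added. The rise with Dex 100 nM was 0.67 ± 0.09 (1.59-fold, limma adjusted p = 0.000142), and the 2 dose groups overlapped. With Dex 10 nM under enzalutamide the rise was 0.41 ± 0.08 (1.33-fold, limma adjusted p = 0.0169) on ILMN_1748124 and 0.54 ± 0.09 (1.45-fold, limma adjusted p = 0.00351) on ILMN_2376403. The former was lost without enzalutamide replicates 1 or 3 or without combination replicates 1 or 2 (adjusted p 0.0547 to 0.133), and both in fits of the 6 compared arrays alone (0.455 and 0.105).

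The differences of TSC22D3 between enzalutamide plus dexamethasone and dexamethasone alone were not called. At Dex 100 nM the differences were 0.21 (95% interval 0.04 to 0.39, limma adjusted p = 0.587) on ILMN_1748124 and -0.08 (-0.28 to 0.12) on ILMN_2376403. The test of whether the Dex response itself differed with enzalutamide called 0 of 24607 probes at either dose. At an unadjusted p below 0.05, it counted 1642 of all probes and 0 family probes at Dex 10 nM, and 1662 and 1 at Dex 100 nM. Given alone, enzalutamide moved TSC22D3 by 0.13 (95% interval -0.05 to 0.30) and -0.04 (-0.23 to 0.16). That comparison with vehicle called 0 of 9 family probes and 0% of all tested probes. At an unadjusted p below 0.05 it counted 0 family probes and 1679 of all.

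TSC22D3 was higher with enzalutamide plus DHT than with DHT alone. With both agents, levels were 8.70, 8.63 and 8.47 on ILMN_1748124 and 6.54, 6.24 and 6.67 on ILMN_2376403, above all DHT arrays on each probe. The rise over DHT was 0.32 ± 0.08 (1.25-fold, limma adjusted p = 0.0455) and 0.46 ± 0.09 (1.38-fold, limma adjusted p = 0.00718). The first was lost without DHT replicates 2 or 3 or combination replicates 1 or 2 (adjusted p 0.155 to 0.214). It was also lost without background correction (0.0508), with median scaling over all probes (0.079), with no filter (0.0714) and in a fit of the 6 compared arrays alone (0.293). The second was lost without combination replicate 3 (adjusted p = 0.0599) and in the fit of the compared arrays (0.226). Against enzalutamide alone, DHT gave differences of -0.03 (95% interval -0.21 to 0.14) and 0.09 (-0.10 to 0.29). The difference between the DHT effects with and without enzalutamide was 0.19 on ILMN_1748124 (limma adjusted p = 0.798) and 0.50 ± 0.13 on ILMN_2376403 (limma adjusted p = 0.0965), neither called. Without combination replicate 2 the latter became 0.62 and was called (adjusted p = 0.00977).

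Ordered by group mean, ILMN_1748124 ran from DHT through vehicle, enzalutamide plus DHT, enzalutamide, Dex 10 nM, enzalutamide plus Dex 10 nM and Dex 100 nM to enzalutamide plus Dex 100 nM. Neighbors in that order were separated without overlap at 3 steps: DHT to vehicle, enzalutamide to Dex 10 nM, and Dex 100 nM to its combination with enzalutamide. On ILMN_2376403 the order was DHT, enzalutamide, vehicle, enzalutamide plus DHT, Dex 10 nM, enzalutamide plus Dex 10 nM, enzalutamide plus Dex 100 nM and Dex 100 nM. There the steps without overlap were DHT to enzalutamide and enzalutamide plus DHT to Dex 10 nM. On both probes the 4 groups with dexamethasone held the 4 highest ranks. The TSC22D3 window printed above held the forkhead motif, and whether that motif has a part in these levels was not tested.

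TSC22D1 rose with DHT and with Dex 100 nM on its short-form probes. On ILMN_1787567, levels were 10.90, 10.83 and 11.14 with vehicle, 11.76, 11.58 and 11.63 with DHT, and 11.28, 11.53 and 11.49 with Dex 100 nM. All DHT arrays were above all Dex 100 nM arrays, which were above all vehicle arrays. DHT raised it by 0.70 ± 0.09 (1.63-fold, limma adjusted p = 3.74e-05) and Dex 100 nM by 0.47 ± 0.09 (1.39-fold, limma adjusted p = 0.00285). On ILMN_1692177, also annotated to the short transcript, levels were 8.62, 8.61 and 8.78 with vehicle, 9.51, 9.52 and 9.53 with DHT, and 9.32, 9.18 and 9.04 with Dex 100 nM. The 3 groups were again separate. The rise was 0.85 ± 0.08 with DHT (1.80-fold, limma adjusted p = 3.72e-07) and 0.51 ± 0.08 with Dex 100 nM (1.43-fold, limma adjusted p = 0.000265). In fits of the 6 compared arrays alone, both Dex 100 nM calls were lost (adjusted p = 0.184 and 0.106) while both DHT calls held.

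The long-form probes of TSC22D1 had the wider spread between arrays. On ILMN_2412380, levels were 9.26, 8.94 and 9.41 with vehicle, 9.75, 10.22 and 10.23 with DHT, and 9.62, 9.61 and 9.89 with Dex 100 nM. Both hormone groups lay above vehicle, and they overlapped each other. DHT raised this probe by 0.86 ± 0.18 (1.82-fold, limma adjusted p = 0.00777), a call lost without vehicle replicate 2 or DHT replicates 2 or 3 (adjusted p 0.0526 to 0.0679) and in the fit of the compared arrays (0.0927). The Dex 100 nM difference of 0.50 ± 0.18 was not called (limma adjusted p = 0.186), except under the replicate block (0.0432). On ILMN_1711091, close to background, the DHT difference was 0.44 ± 0.19 (limma adjusted p = 0.375) and the Dex 100 nM difference 0.06. Levels of this probe ran from 4.87 to 5.52 with vehicle and from 5.50 to 5.70 with DHT, so the groups overlapped.

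Dexamethasone at 10 nM gave no call for TSC22D1. Its calls for TSC22D3 sat close to the threshold, as given above, and a difference between these genes was not tested. Levels were 10.99, 11.05 and 11.11 on ILMN_1787567 and 8.83, 8.68 and 8.70 on ILMN_1692177, overlapping with vehicle. The differences from vehicle were 0.09 (95% interval -0.09 to 0.28) on ILMN_1787567 and 0.07 (-0.09 to 0.23) on ILMN_1692177. Between the doses, ILMN_1692177 was higher at 100 nM than at 10 nM by 0.44 ± 0.08 (1.36-fold, limma adjusted p = 0.00909), and ILMN_1787567 by 0.38, which was not called (limma adjusted p = 0.0849). The ILMN_1692177 dose call was lost without Dex 10 nM replicates 2 or 3 or Dex 100 nM replicate 1 (adjusted p 0.0509 to 0.0528) and in the fit of the compared arrays (0.486). Without that last array ILMN_1787567 was called, at 0.45 (adjusted p = 0.0418), as it was among probes detected on all 24 arrays (0.0448) and with 1 probe per gene (0.0447). Between the hormones, ILMN_1692177 was lower with Dex 100 nM than with DHT by 1.26-fold (-0.34 ± 0.08, limma adjusted p = 0.028). That call was lost without any 1 of the 3 DHT arrays or of Dex 100 nM replicates 2 and 3 (adjusted p 0.0788 to 0.157), with median scaling over all probes (0.178) and in the fit of the compared arrays (0.373). For ILMN_1787567 the same difference was -0.23 (limma adjusted p = 0.361).

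**Figure D3:**
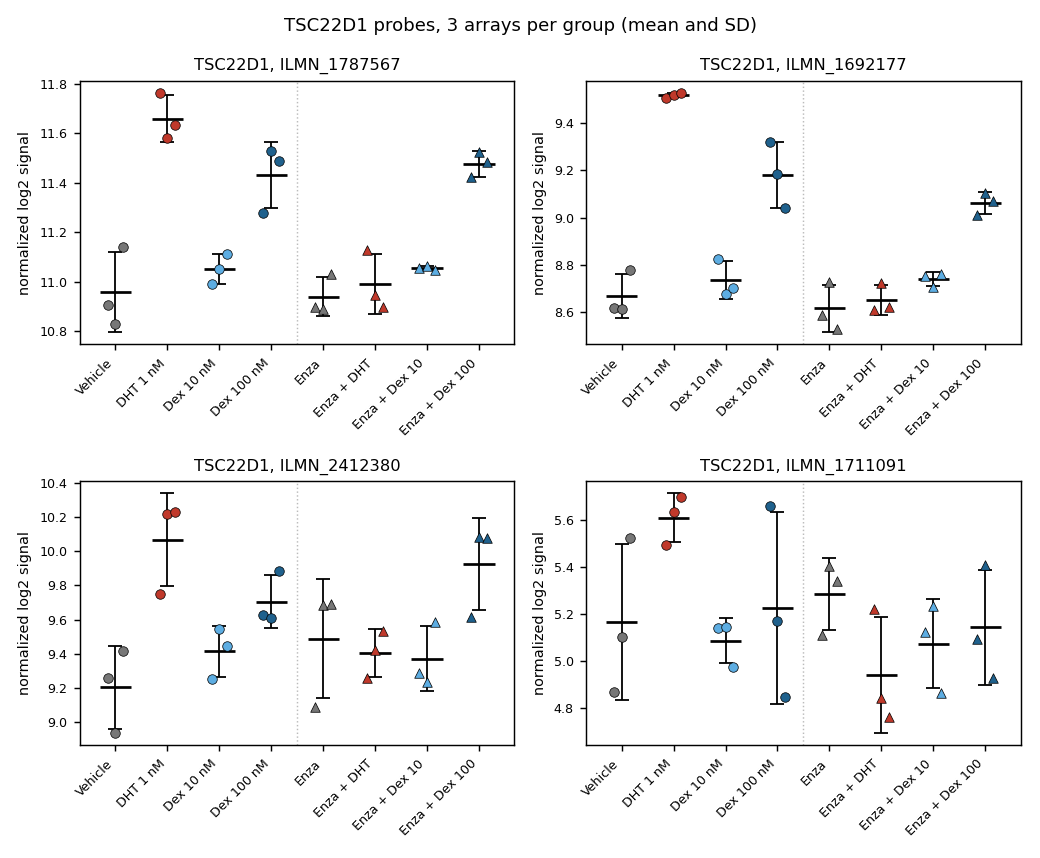
Normalized log2 signal (vertical axis) of the 4 TSC22D1 probes in the 8 treatment groups (horizontal axis), with 1 point per array, the group mean as a line and the SD of 3 arrays as a bar. On the short-form probes ILMN_1787567 and ILMN_1692177 the 3 DHT arrays are above every other array, and the enzalutamide plus DHT arrays are at the level of vehicle, while the Dex 100 nM groups are raised with and without enzalutamide.

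With enzalutamide present, the DHT response of TSC22D1 was not seen. Levels with both agents were 11.13, 10.95 and 10.90 on ILMN_1787567 and 8.61, 8.72 and 8.62 on ILMN_1692177, at the level of the vehicle arrays and below all DHT arrays. Compared with DHT alone, the level fell by 0.67 ± 0.09 on ILMN_1787567 on the log2 scale (1.59-fold, limma adjusted p = 6.72e-05). On ILMN_1692177 the difference was -0.87 ± 0.08 (1.82-fold, limma adjusted p = 3.19e-07). Against enzalutamide alone, DHT gave 0.05 (95% interval -0.13 to 0.24) and 0.03 (-0.13 to 0.20), and that comparison called 0 family probes and 0% of all tested probes. At an unadjusted p below 0.05 it counted 0 family probes and 894 of all. The DHT effects with and without enzalutamide differed by -0.65 ± 0.13 (limma adjusted p = 0.00791) and -0.81 ± 0.11 (limma adjusted p = 0.000154). Those 2 probes were the family probes called in this test, which called 1.05% of all probes. The ILMN_1787567 call was lost in a fit of the compared arrays alone (adjusted p = 0.0879) and with median scaling over all probes (adjusted p = 0.122). That on ILMN_1692177 held under all alternatives tried (adjusted p 4.49e-05 to 0.02).

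The long-form probes were lower with enzalutamide plus DHT than with DHT by 0.66 ± 0.18 (ILMN_2412380, limma adjusted p = 0.0631) and 0.67 ± 0.19 (ILMN_1711091, limma adjusted p = 0.0806), and neither was called. Levels with both agents were 9.26, 9.42 and 9.54 on ILMN_2412380 and 5.22, 4.84 and 4.76 on ILMN_1711091, all below the DHT arrays. Without DHT replicate 1 the ILMN_2412380 difference was -0.82 and was called (adjusted p = 0.0289). It was also called without background correction (0.0398), among probes detected on all 24 arrays (0.039), with array weights (0.0366) and under a replicate block (0.00747). Without combination replicate 1 that on ILMN_1711091 was -0.81 and was called (adjusted p = 0.0485). For ILMN_2412380 the difference between DHT effects was -0.94 ± 0.25 (limma adjusted p = 0.102). It was called without DHT replicate 1 (-1.10, adjusted p = 0.0451) and without enzalutamide replicate 1 (-1.15, adjusted p = 0.0193), and under the replicate block (0.0129).

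The TSC22D1 rise with Dex 100 nM was present under enzalutamide. Levels with Dex 100 nM and enzalutamide were 11.42, 11.52 and 11.48 on ILMN_1787567 and 9.01, 9.10 and 9.07 on ILMN_1692177. Enzalutamide alone gave 10.90, 10.89 and 11.03, and 8.59, 8.73 and 8.53. The groups did not overlap on either probe. The rise was 0.54 ± 0.09 (1.45-fold, limma adjusted p = 0.000992) and 0.45 ± 0.08 (1.36-fold, limma adjusted p = 0.00158). In fits of the 6 compared arrays alone neither passed (adjusted p = 0.0675 and 0.154). Adding enzalutamide to Dex 100 nM moved the probes by 0.05 (95% interval -0.14 to 0.23) and -0.12 (-0.28 to 0.04). The enzalutamide effect on the Dex 100 nM background differed from that on the DHT background by 0.71 ± 0.13 (limma adjusted p = 0.00391) and 0.75 ± 0.11 (limma adjusted p = 0.000533). These were the family probes called in that test, which called 0.87% of all probes. The ILMN_1787567 call was lost with median scaling over all probes (adjusted p = 0.06). With enzalutamide in both groups, Dex 100 nM exceeded DHT for TSC22D1 by 0.49 ± 0.09 on ILMN_1787567 (1.40-fold, limma adjusted p = 0.00299) and 0.41 ± 0.08 on ILMN_1692177 (1.33-fold, limma adjusted p = 0.00385). Both calls were lost in fits of the 6 compared arrays alone (adjusted p = 0.126 and 0.147) and with median scaling over all probes (0.0527 and 0.154).

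The corresponding tests for TSC22D3 were as follows. Under enzalutamide, Dex 100 nM exceeded DHT by 0.74 ± 0.08 on ILMN_1748124 (1.67-fold, limma adjusted p = 9.03e-06) and by 0.58 ± 0.09 on ILMN_2376403 (1.49-fold, limma adjusted p = 0.000952). The latter was lost in the fit of the 6 compared arrays (adjusted p = 0.193). The test of the enzalutamide effect between the Dex 100 nM and DHT backgrounds gave -0.11 (limma adjusted p = 0.888) on ILMN_1748124 and -0.54 ± 0.13 (limma adjusted p = 0.0658) on ILMN_2376403. The latter was called without the second enzalutamide plus DHT array (-0.66, adjusted p = 0.00623), with the deposited normalized values (-0.67, 0.0405) and among probes detected on all 24 arrays (0.0339).

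At Dex 10 nM under enzalutamide, TSC22D1 levels were 11.06, 11.06 and 11.05 on ILMN_1787567 and 8.76, 8.71 and 8.76 on ILMN_1692177. Dex 100 nM under enzalutamide was above them on every array, by 0.42 (limma adjusted p = 0.0539) and 0.32 (limma adjusted p = 0.124), and neither difference was called. The first was called without background correction (0.0378), with the deposited normalized values (0.0425), among probes detected on all 24 arrays (0.0266) and with 1 probe per gene (0.0238).

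In the order of group means, both short-form TSC22D1 probes had DHT highest, followed by the 2 groups with Dex 100 nM, and enzalutamide alone lowest. On ILMN_1787567 the order upward was enzalutamide, vehicle, enzalutamide plus DHT, Dex 10 nM, enzalutamide plus Dex 10 nM, Dex 100 nM, enzalutamide plus Dex 100 nM and DHT. Neighbors were apart without overlap only at the step from enzalutamide plus Dex 10 nM to Dex 100 nM and at the last step. Among the 5 lowest groups all neighbors overlapped, although enzalutamide plus Dex 10 nM lay above enzalutamide alone without overlap. On ILMN_1692177 the same 5 groups were lowest, and the step to enzalutamide plus Dex 100 nM and the step from Dex 100 nM to DHT were without overlap. Side by side, then, DHT and Dex 100 nM gave log2 changes of 0.85 and 0.51 on TSC22D1 ILMN_1692177 and of 0.70 and 0.47 on ILMN_1787567. For TSC22D3 they gave -0.40 and 0.71 on ILMN_2376403, and -0.23 (not called) and 0.62 on ILMN_1748124. The DHT call on ILMN_2376403 was lost with some arrays left out, as given above. These comparisons share the vehicle arrays.

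TSC22D2 and TSC22D4 were called in 0 of the 14 comparisons between groups and 0 of the 4 tests between effects. Of the 54 probe results, 8 had an unadjusted p below 0.05, and the lowest adjusted p from limma was 0.104. Over all 24607 tested probes, 894 to 3247 had an unadjusted p below 0.05 in a given test. The 54 results share probes and arrays, so they are not independent. TSC22D2 ILMN_2124187 stayed between 8.87 and 9.66 on all 24 arrays. Its differences from vehicle were 0.07 with DHT (limma adjusted p = 0.949) and 0.05 with Dex 100 nM (95% interval -0.23 to 0.33, limma adjusted p = 0.935). All neighbors in its order of group means overlapped. The second TSC22D2 probe, ILMN_1685574, had levels of 7.95, 8.13 and 8.26 with vehicle and 7.81, 7.20 and 7.84 with Dex 100 nM. These groups did not overlap, and the difference was -0.49 ± 0.15 (95% interval -0.81 to -0.17), which was not called (limma adjusted p = 0.104). The signal of the Dex 100 nM array at 7.20 rested on only 5 beads. With enzalutamide in both groups, the Dex 100 nM difference of this probe was -0.03 (limma adjusted p = 0.974). The 2 TSC22D2 probes share an annotated transcript. Neither was called with Dex 100 nM against vehicle, and the interval of ILMN_2124187 (-0.23 to 0.33) spanned both signs. TSC22D4, whose protein pairs with other family members, had levels of 8.34, 8.14 and 7.78 with vehicle and 7.58, 7.80 and 7.72 with Dex 100 nM on ILMN_1721636. With DHT they were 7.92, 7.98 and 7.70. The groups overlapped, and the Dex 100 nM difference was -0.38 ± 0.15 (95% interval -0.69 to -0.08, limma adjusted p = 0.232). Under enzalutamide the Dex 100 nM difference of TSC22D4 was -0.36 (limma adjusted p = 0.333).

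**Figure D4:**
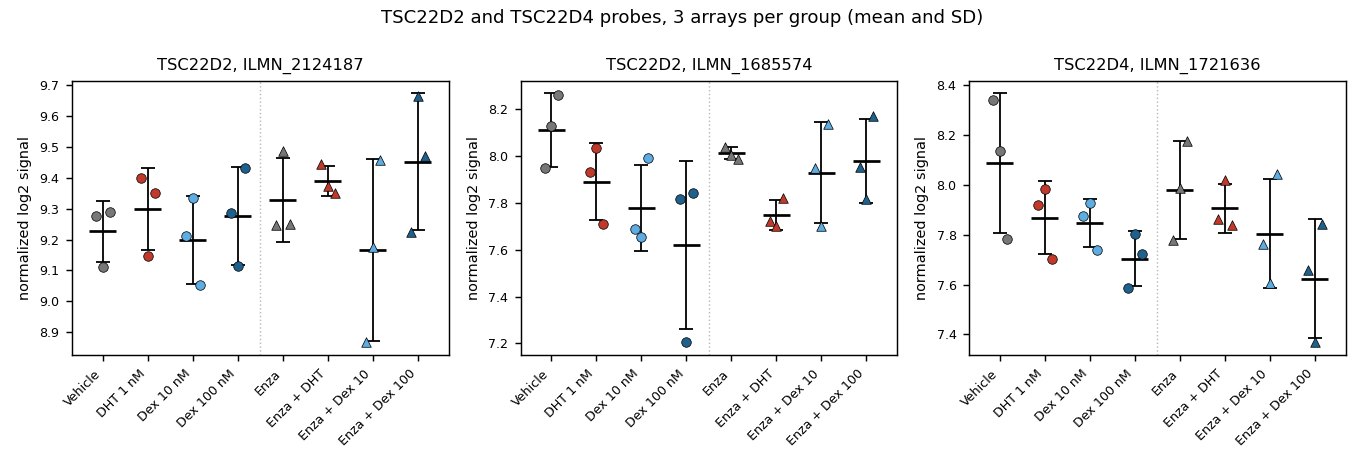
Normalized log2 signal (vertical axis) of the 2 TSC22D2 probes and the TSC22D4 probe in the 8 treatment groups (horizontal axis), with 1 point per array, the group mean as a line and the SD of 3 arrays as a bar. Arrays of most groups overlap on all 3 probes, and the lowest TSC22D2 ILMN_1685574 value, 7.20, is an array with Dex 100 nM whose signal rested on 5 beads.

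Genes around the family moved in part. Of 17 tested genes known as glucocorticoid-induced companions of TSC22D3, 14 rose with Dex 100 nM and 9 rose with DHT, with median log2 changes of 0.93 and 0.65. Over all tested probes, 2.91% were called in either direction with Dex 100 nM and 2.52% with DHT, with a median of -0.01 in both. SGK1, a serum- and glucocorticoid-regulated kinase, rose by 6.04 ± 0.12 with Dex 100 nM, and ERRFI1, an inhibitor of EGF receptor signaling, by 2.65 ± 0.09 (limma adjusted p = 1.81e-17 and 5.67e-14). ZBTB16, a transcriptional repressor, was not above background on any of the 3 vehicle arrays and was detected on all 3 Dex 100 nM arrays, at least 6.05-fold higher (limma adjusted p = 5.19e-12). That bound sets the Dex 100 nM mean against the lowest signal of a detected probe on each vehicle array. The log2 rises of TSC22D3 were 0.62 and 0.71 in the same comparison. This list was drawn up with results of these data known, so its direction is no independent evidence. Of 5 tested receptors and factors that act on the TSC22D3 gene, FOXO3, a forkhead factor, rose with Dex 100 nM by 0.79 ± 0.07 (limma adjusted p = 8.78e-08). NR3C1, the glucocorticoid receptor, was lower by 1.30 on the log2 scale on probe ILMN_2389347 (limma adjusted p = 0.000199), whereas its other tested probe, detected on 3 arrays, gave -0.05. With DHT these values were 0.38 for FOXO3 (limma adjusted p = 0.00138) and, for NR3C1, -1.01 (limma adjusted p = 0.00327) and -0.07.

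Among 10 tested partners and effectors reported for GILZ, 2 rose with Dex 100 nM: FOXO3 again and CEBPD, a C/EBP transcription factor, by 1.99 ± 0.09 (limma adjusted p = 6.2e-12). With DHT, 3 rose: CEBPD, FOXO3 and JUN, an AP-1 subunit (0.36 ± 0.08, limma adjusted p = 0.02). Under enzalutamide, Dex 100 nM raised 2, CEBPD and FOXO3, and lowered 1, PPARG (-0.28 ± 0.07, limma adjusted p = 0.0428). PPARG differed from vehicle by -0.12 with Dex 100 nM (limma adjusted p = 0.51). Over all tested probes, 2.91% were called with Dex 100 nM, 2.52% with DHT and 1.97% with Dex 100 nM under enzalutamide. These shares stand beside the counts of this list and the next 2. NFKB1 and RELA, the NF-kappaB subunits that GILZ binds, differed from vehicle by 0.05 and 0.02 with Dex 100 nM (limma adjusted p = 0.886 and 0.971). Of 8 tested NRBP and WNK partners of the long TSC22 proteins, 1 rose and 1 fell with Dex 100 nM. STK39, the kinase SPAK that acts downstream of WNK kinases, rose by 1.21 ± 0.08 (2.32-fold, limma adjusted p = 3.96e-09), and by 0.59 ± 0.08 with DHT (limma adjusted p = 0.000107). WNK3, a WNK kinase, fell 2.01-fold (SE of the log2 change 0.21, limma adjusted p = 0.00879). Under enzalutamide, Dex 100 nM again raised STK39, by 1.21, whereas WNK3 differed by 0.09 (limma adjusted p = 0.935). NRBP1 itself differed by -0.15 (limma adjusted p = 0.508). Of 8 tested genes of the transforming growth factor beta pathway, 0 were called with Dex 100 nM, and SMAD6, an inhibitory SMAD, was lower with DHT by 1.29-fold (-0.36 ± 0.07, limma adjusted p = 0.00299). SMAD6 was also lower with Dex 100 nM than without it under enzalutamide (-0.35, limma adjusted p = 0.0052), and its Dex 100 nM difference from vehicle was -0.22 (limma adjusted p = 0.0933).

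The genes whose levels ran most like those of each member over the 24 arrays were found by Pearson's r among all tested probes of other genes. For TSC22D3 (ILMN_1748124) they were DDIT4, an inhibitor of mTORC1 signaling (r = 0.92), KLF9, a Krüppel-like factor (0.90), PLLP (0.89), TACC2 (0.89) and SCNN1G, an epithelial sodium channel subunit (0.89). DDIT4 had log2 differences of -0.31 with DHT (limma adjusted p = 0.053) and 0.99 with Dex 100 nM (limma adjusted p = 8.34e-08). TSC22D3 had -0.23 and 0.62. The differences were 0.003 and 0.75 for KLF9, -0.22 and 0.72 for PLLP, -0.07 and 0.15 for TACC2, and -0.35 and 2.13 for SCNN1G. None of these DHT differences was called, nor was that of TACC2 with Dex 100 nM (limma adjusted p = 0.271). For TSC22D1 (ILMN_1787567) they were CRISPLD2 (0.95), RASD1, a dexamethasone-induced Ras-related protein (0.94), SNAI2, a transcriptional repressor (0.91), SOCS2, a suppressor of cytokine signaling (0.90), and MTMR9 (0.90). RASD1 rose by 3.08 with DHT and by 2.17 with Dex 100 nM (limma adjusted p = 6.72e-10 and 9.81e-08). For TSC22D2 and TSC22D4 the highest r was 0.71 (SSX3) and 0.76 (MAPKAPK2). The points of each r share their 8 treatment groups and arrays, and r is given as a description.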

How the data were processed

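Total RNA from 24 cultures was labelled with biotin and hybridised to Illumina beadchips, per the labels' protocols, and GenomeStudio is named in the submitters' processing notes, without a version. The deposited non-normalized table holds, per the file headers, a mean bead signal intensity, a count of beads, a bead standard error and a detection p-value for each probe and array. A second table of intensity values was normalized by the authors by a method not given in the sources used here. Its values ran below 0 for 29.4% to 29.6% of probes, and it served as an alternative. Array groups came from the treatment labels. Gene symbols and accessions came from the platform annotation, in which 30113 probes had 1 symbol, 8 had several and 17202 had none, and all 12 family probes matched RefSeq by gene ID.

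The signals were corrected with limma 3.58.1 in R 4.3.3 (normexp with the detection p-values, offset 16), quantile-normalized and put on a log2 scale. Probes with a detection p-value below 0.05 on at least 3 arrays were fitted with 1 linear model of 8 group means, and lmFit and eBayes gave 14 comparisons and 4 differences between effects, adjusted by Benjamini-Hochberg over all 24607 probes within each. The median SE of a log2 change was 0.15. The number of arrays limits the precision. Alternatives were other background, scaling and filter settings, the deposited normalized table, 1 probe per gene, array weights, the compared arrays only, a replicate block, and leaving out each array.

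Every family probe is named. The 5 genes most like each gene's brightest tested probe were named by Pearson's r, and from each pathway list up to 4 called genes with the largest change, plus NFKB1, RELA and NRBP1, named after their values were seen. The members and the lists were chosen with earlier results of these data known. The title numbers run in 3 rounds of 8 arrays. Deviations from group means correlated at a median of 0.09 between arrays of a round (-0.05 to 0.22). Between arrays of different rounds the median was -0.02, and 18 arrays correlated best with their own round. Arrays of a round were thus slightly more alike than arrays of different rounds. The main model left the rounds out, and the replicate block by round was fitted as an alternative.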

Additional observations from a re-analysis of the deposited data

Results flagged for a closer look

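The effect of the same contrast differed between treatment backgrounds for both short-form TSC22D1 probes, by a direct test of the difference in limma. The log2 effect of DHT was smaller with enzalutamide than without it by 0.65 ± 0.13 on ILMN_1787567 (difference -0.65, adjusted p = 0.00791) and by 0.81 ± 0.11 on ILMN_1692177 (difference -0.81, adjusted p = 0.000154). The log2 effect of enzalutamide was higher on the Dex 100 nM background than on the DHT background by 0.71 ± 0.13 on ILMN_1787567 (adjusted p = 0.00391) and by 0.75 ± 0.11 on ILMN_1692177 (adjusted p = 0.000533). Both tests share the DHT and the enzalutamide plus DHT arrays. The ILMN_1787567 calls were lost with median scaling over all probes in both tests (adjusted p = 0.122 and 0.06), and in the first also in a fit of the compared arrays alone (0.0879). The 2 probes are annotated to the same TSC22D1 transcript.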

How the results depend on the processing

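Over 518 recomputations of the 32 called probe results, all 32 kept their direction, 65 recomputations lost the call, and 13 of the 32 kept it under every alternative and with every array left out in turn. All 32 were called with array weights, with the deposited normalized values, with probes detected on all 24 arrays, with median scaling over tested probes and under the replicate block. A fit of only the arrays compared, which has fewer arrays to estimate the spread, kept 14 of 32 and lost 18. It called 1 family probe in the difference between DHT effects, 0 for Dex 10 nM against vehicle, 0 for Dex 100 nM against 10 nM and 0 for Dex 10 nM under enzalutamide. It called 2 each for DHT and Dex 100 nM against vehicle, for Dex 100 nM against enzalutamide alone and for enzalutamide plus DHT against DHT, and 1 for enzalutamide plus Dex 100 nM against enzalutamide plus DHT. Over all tested probes it called 303 instead of 620 for DHT, 96 instead of 281 for Dex 10 nM, 281 instead of 716 for Dex 100 nM, 9 instead of 95 between the doses, 118 instead of 355 for Dex 100 nM against DHT and 224 instead of 566 for enzalutamide plus DHT against DHT. With enzalutamide it called 43 instead of 168 for Dex 10 nM, 177 instead of 485 for Dex 100 nM, 9 instead of 61 between the doses and 166 instead of 456 for Dex 100 nM against DHT, and 140 instead of 214 in the difference between enzalutamide effects. Median scaling over all probes lost 8 calls and left 1 in each of the 2 differences between effects that had calls, 0 for Dex 10 nM against vehicle and 2 for enzalutamide plus Dex 100 nM against enzalutamide plus DHT. With it, 113 of all probes were higher and 223 lower with Dex 10 nM, instead of 204 and 77, and 302 and 261 with Dex 100 nM, instead of 457 and 259, and for Dex 10 nM under enzalutamide 168 and 5, instead of 145 and 23. Its counts over all probes were 129 instead of 214 and 170 instead of 259 in the 2 differences, 235 instead of 355 for Dex 100 nM against DHT and 32 instead of 61 between doses under enzalutamide. Without background correction, Dex 10 nM against vehicle had 1 call, as it had with no filter. Taking 1 probe per gene leaves fewer family probes by construction and gave 1 call for both differences, both Dex 10 nM comparisons, DHT against vehicle, Dex 100 nM against DHT, and the doses with and without enzalutamide. It gave 2 for Dex 100 nM against vehicle, against enzalutamide alone and against DHT under enzalutamide, and for enzalutamide plus DHT against DHT. The comparison of doses under enzalutamide had 1 call (TSC22D1 ILMN_1787567) without background correction, with the deposited normalized values and with probes detected on all 24 arrays. Under the last of these, Dex 100 nM against 10 nM had 2 calls.

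With each array left out in turn, calls ranged from 2 to 4 for DHT, 0 to 1 for Dex 10 nM, 0 to 1 for Dex 100 nM against 10 nM, 2 to 3 for Dex 100 nM against DHT, 3 to 5 for enzalutamide plus DHT against DHT and 1 to 2 for Dex 10 nM under enzalutamide. They ranged from 2 to 3 in both differences between effects with calls, and stayed at 4 for Dex 100 nM against vehicle, against enzalutamide alone and against DHT under enzalutamide. Comparisons with 0 family calls stayed at 0, apart from the doses under enzalutamide in the settings above. Over all probes, the counts with an array left out fell as low as 182 for Dex 10 nM, 41 between the doses and 39 between doses under enzalutamide. The replicate block, by title round, ended no call and added TSC22D1 ILMN_2412380 for Dex 100 nM against vehicle (adjusted p = 0.0432), enzalutamide plus DHT against DHT (0.00747) and both differences between effects (0.0129 and 0.0263). Of 24 arrays, 18 correlated best with their own round. A block by chip was not run, since the headers name no chip. TSC22D1 ILMN_1711091 and the 3 undetected TSC22D3 probes are limited by signal near background.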
